A study of Mus musculus with 26 samples.

Results

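The late step of retinoic acid differentiation was examined in one Nap1l1 mutant mouse embryonic stem cell line by comparing its 3 libraries from day 4 with its 3 libraries from day 2, out of 26 RNA-seq libraries in all. The libraries were taken by their labels: day 4 and day 2 of the line whose genotype is given as an alpha knock-out of NAP1L1, called alphaKO here, with the library name prefix C6. Nap1l1 encodes a nucleosome assembly protein, a chaperone that carries histones H2A and H2B. The other 20 libraries were alphaKO cells at day 0 (3 libraries), wild-type cells (WT, 3 libraries at each of days 0, 2 and 4) and a line with a full knock-out of the same gene (fullKO, 2 libraries at day 0 and 3 at each later day). All lines carry the label KH2, an embryonic stem cell line, and all cells after day 0 had been given retinoic acid. No untreated cells of a later day were analysed here, so the effect of the drug and the passage of time cannot be told apart. The labels do not say whether the alphaKO line is a single clone or whether its replicates were separate cultures. Each p-value sets a change against the spread between libraries of the same group, estimated over all 26 libraries. That spread may be technical.

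Retinoic acid is made from vitamin A by retinaldehyde dehydrogenases, is carried in the cytoplasm by binding proteins and is broken down by the Cyp26 hydroxylases. In the nucleus it binds RAR receptors, which sit with RXR partners on direct repeats in the DNA and switch on targets such as Rarb, Cyp26a1 and the 3′ Hox genes. In embryonic stem cells this ends pluripotency, and the cells go on towards neural and other fates as successive genes of the Hox clusters are opened.

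The alphaKO libraries held 14614844 to 17262447 counted reads at day 4 and 17400607 to 18478419 at day 2, and mitochondrial genes took 1.76 to 1.94% of the reads at day 4 and 1.95 to 2.04% at day 2. On the first principal component of all 26 libraries, which carried 57.5% of the variance, the alphaKO libraries lay at -119.8 to -111.4 at day 0, 18.8 to 21.57 at day 2 and 80.2 to 82.07 at day 4. The third day 0 library, at -111.4, lay further from the other day 0 libraries (-119.8 and -119.2) than the day 2 or day 4 libraries lay from each other; day 0 levels are given as descriptions. Levels are CPM, counts divided by library size after scaling for composition, so they compare one gene between libraries and not one gene with another. Nap1l1 itself was read at 339, 348 and 340.2 CPM at day 4, against 609, 628 and 619 CPM at day 2, that is, -0.85 ± 0.038 on the log2 scale (fold change ± SE; adjusted p = 2.24e-23 by edgeR's quasi-likelihood test). All the day 4 libraries lay below all the day 2 libraries, while at day 0 the mean was 599 CPM. Reads summed per gene do not show which Nap1l1 isoform they come from, so this value does not check the alpha deletion.

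Between day 2 and day 4 the alphaKO cells changed in most of the genes they express. Of 18412 genes tested, 5535 were higher at day 4 (30.1%) and 5179 were lower (28.1%) at a Benjamini-Hochberg adjusted p under 0.05. With a change of at least 2-fold also required, 1943 genes (10.6%) were higher and 1282 (6.96%) were lower. The median log2 fold change of all genes tested was 0.018. The 3 libraries of one day lay wholly above those of the other for 6097 genes that were higher (33.1%) and 5638 that were lower (30.6%). Among 1567 long non-coding RNAs 362 were higher and 166 lower, with a median log2 fold change of 0.31, whereas 1022 pseudogenes gave 75 higher and 143 lower with a median of -0.15. For protein-coding genes (15239) the counts were 4994 and 4837. Every count of list members below is to be read against these shares, and a share near them is no result about the list. In each list the members with the largest called changes are named; other members, the classical ones above all, were named after their values were seen.

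Aldh1a2 and Rdh10, whose enzymes make retinoic acid, were higher at day 4, and 2 of its binding proteins changed in opposite directions. Rarb, a retinoic acid receptor gene that is itself a classical target, had 42.6, 44.3 and 43.3 CPM at day 4, against 18.6, 20.3 and 20.1 CPM at day 2. Its course over days 0, 2 and 4 was 0.149, 19.7 and 43.4 CPM, and every day 4 library was above every day 2 library, giving a log2 fold change of 1.14 ± 0.089 (adjusted p = 2.89e-15). Cyp26a1, the first retinoic acid hydroxylase to respond, had 232, 218 and 223 CPM at day 4, against 243, 257 and 258 CPM at day 2. All its day 4 libraries were just below its day 2 libraries (-0.17 ± 0.059, adjusted p = 0.0115); without the second day 4 library the adjusted p was 0.0568. The 250 bases before the annotated starts of both genes are printed because these were the genes of the 2 retinoid lists whose promoter window held a direct repeat with a 5-base spacer (DR5), the arrangement bound by RAR and RXR. Capitals mark the DR5, which starts 53 bases before the start of Rarb (chr14:16575477-16575726, minus strand) and 32 bases before that of Cyp26a1 (chr19:37697558-37697807, plus strand); sequences and coordinates are from RefSeq, GRCm38.p6.
Rarb: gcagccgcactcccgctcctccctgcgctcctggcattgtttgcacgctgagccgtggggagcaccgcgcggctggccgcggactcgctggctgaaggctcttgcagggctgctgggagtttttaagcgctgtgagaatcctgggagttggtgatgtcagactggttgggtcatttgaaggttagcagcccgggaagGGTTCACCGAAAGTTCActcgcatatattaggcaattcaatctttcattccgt
Cyp26a1: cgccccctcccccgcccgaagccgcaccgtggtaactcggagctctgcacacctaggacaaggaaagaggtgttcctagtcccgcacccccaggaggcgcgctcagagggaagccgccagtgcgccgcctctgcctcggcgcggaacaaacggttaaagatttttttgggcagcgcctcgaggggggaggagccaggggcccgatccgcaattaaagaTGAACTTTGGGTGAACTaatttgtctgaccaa
The repeat was searched as the DR5 motif on both strands, and 32 of the 32851 RefSeq promoter windows of 300 bases (0.0974%) held it. Such a match is a description of the letters, not a site in use or a cause of the changes.

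Of the 14 genes for retinoid metabolism and binding, 8 were higher and 4 lower at day 4, with a median log2 fold change of 0.68. Aldh1a2, which makes retinoic acid from retinaldehyde, had 25.6, 32.4 and 35.2 CPM at day 4, against 1.71, 1.99 and 1.13 CPM at day 2, and the days did not overlap. Its log2 fold change was 4.26 ± 0.20 (adjusted p = 3.52e-23). Rdh10, the enzyme of the step before it, had 93.9, 112 and 109 CPM at day 4, against 22.1, 19.5 and 21.9 CPM at day 2, a log2 fold change of 2.31 ± 0.076. Both genes were higher in every day 4 library than in any day 2 library. The reductase gene Dhrs3, which turns retinaldehyde back to retinol, rose by 1.03 on the log2 scale, and Cyp26b1, a second hydroxylase, rose by 1.33 to a mean of 245 CPM, against 97.2 CPM at day 2. The carriers moved apart. Crabp1 had 28.5, 38.7 and 41.4 CPM at day 4, against 2.05, 2.26 and 2.27 CPM at day 2 (4.04 ± 0.18, adjusted p = 6.83e-24). Its mean at day 0 was 58.2 CPM, above that of day 4 (36.2 CPM). Crabp2, which hands retinoic acid to the receptors, had 75.9, 80.2 and 80.1 CPM at day 4, against 304, 335 and 301 CPM at day 2 (-1.99 ± 0.053, adjusted p = 1.24e-31). Rbp4, the blood carrier of retinol, rose by 2.06 to a mean of 9.36 CPM, and Lrat, which stores retinol as esters, fell by 1.95 at under 1 CPM. Cyp26c1 did not pass the test, at 0.03.

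Among 11 nuclear receptors and cofactors of the response, 7 were higher and 3 lower. The COUP-TF genes, orphan receptors of neural and mesenchymal development, moved most. Nr2f1 had 71.6, 83.7 and 82.4 CPM at day 4, against 2.68, 3.67 and 3.94 CPM at day 2, which is 4.52 ± 0.13 on the log2 scale (adjusted p = 1.46e-30). Nr2f2 had 307, 343 and 304 CPM at day 4, against 52, 53.4 and 55.9 CPM at day 2, a change of 2.56 ± 0.079. Neither gene's days overlapped. Rxra, the main partner of the RARs, rose by 0.84, Nr2f6 by 1.09 and Rara by 0.26. Nr6a1, an orphan receptor that represses Pou5f1 during differentiation, fell to 62.6, 56.8 and 65 CPM at day 4, against 177, 171 and 162 CPM at day 2 (-1.47 ± 0.052). Nrip1, a corepressor of nuclear receptors, fell by 0.82 on the log2 scale. Rxrg was under 1 CPM and did not pass the test.

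**Figure D1:**
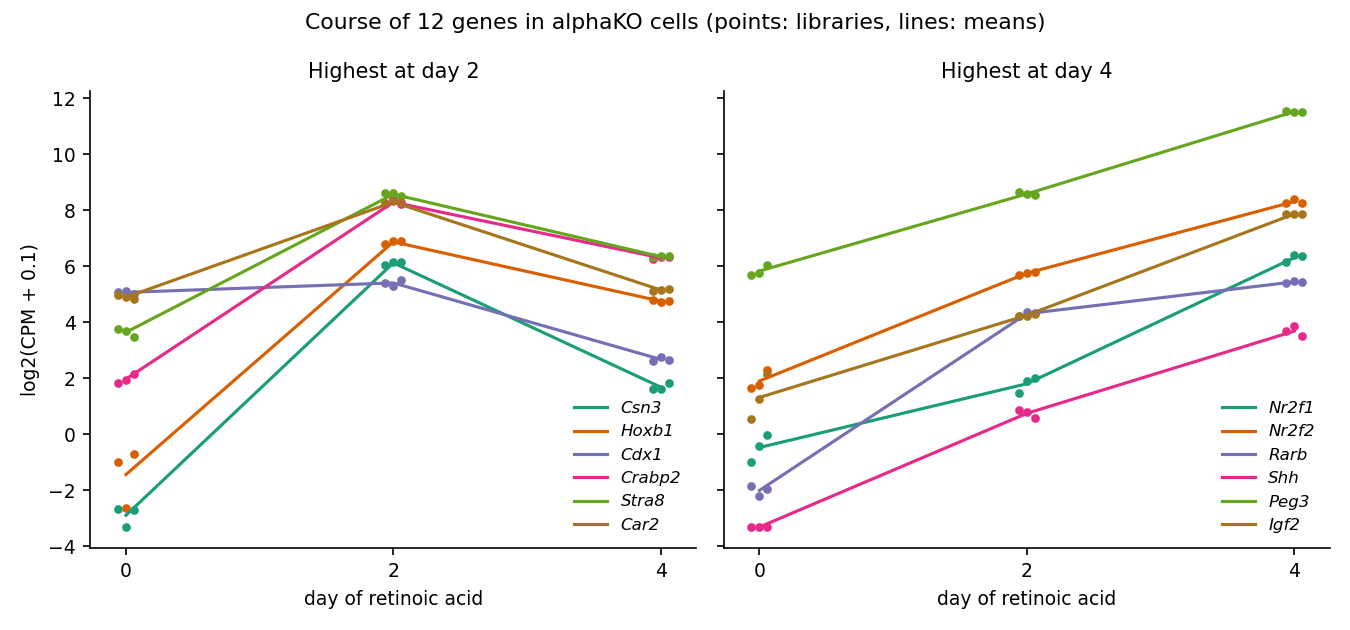
Levels of 12 genes in alphaKO cells at days 0, 2 and 4 of retinoic acid, as log2(CPM + 0.1) on the vertical axis; points are single libraries (3 per day) and lines join the means. The 6 genes on the left are highest at day 2 and lower again at day 4, and the 6 on the right highest at day 4; the genes were picked for these shapes.

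Of 38 Hox genes tested, 21 were higher, 6 were lower and 11 did not pass the test. The 3′ genes of the clusters are known to respond first to retinoic acid. Hoxb1, the 3′-most gene of HoxB, had turned down. It had 27.5, 26.1 and 27 CPM at day 4, against 112, 119.7 and 119.7 CPM at day 2 (-2.12 ± 0.065, adjusted p = 1.51e-29), after 0.327 CPM at day 0. Every day 4 library was below every day 2 library. Its HoxD counterpart Hoxd1 rose: it had 12, 12 and 9.2 CPM at day 4, against 2.91, 3.29 and 2.48 CPM at day 2 (1.94 ± 0.20). Hoxd3 changed by 2.21 ± 0.40 and Hoxd4 by 2.76 ± 0.35, though Hoxd3 and Hoxd4 stayed under 6 CPM. In paralog groups 1 to 4 the counts were 6 higher and 4 lower of 12, and in groups 5 to 8 they were 6 higher and 2 lower of 11.

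In the middle groups, Hoxb5 and Hoxb8 fell (-0.66 ± 0.079 and -0.496 ± 0.069) while Hoxc6 and Hoxc8 rose (1.996 ± 0.12 and 0.86 ± 0.077). Hoxa6 had 8.13, 8.33 and 9.13 CPM at day 4, against 1.43, 1.67 and 1.51 CPM at day 2. Hoxd8 had 11.5, 13.6 and 9.39 CPM at day 4, against 3.25, 3.07 and 2.16 CPM at day 2. Both rose in all 3 libraries relative to all 3 at day 2. Of the 15 genes tested in the 5′ groups 9 to 13, which pattern the trunk and tail, 9 were higher and the others did not pass the test, with a median log2 fold change of 0.975. Hoxb13 had 18.9, 15 and 15 CPM at day 4, against 4.28, 4.31 and 3.78 CPM at day 2 (1.98 ± 0.16, adjusted p = 7.64e-15). Hoxa9 had 38.2, 44.5 and 49.1 CPM at day 4, against 21, 23.3 and 22.1 CPM at day 2 (0.99 ± 0.089), and Hoxa10 and Hoxd9 changed by 1.03 ± 0.13 and 1.01 ± 0.17. Hoxa13 was called at 2.56 ± 0.59 but had only 2.83, 0.931 and 1.22 CPM at day 4, against 0.171, 0.539 and 0.108 CPM at day 2, with the first day 4 library well above the others. Hoxd10, at 0.69 CPM, passed narrowly (adjusted p = 0.0435) and lost the call without the second or the third day 4 library or the first or the second day 2 library (adjusted p = 0.0592 to 0.236). By cluster, the calls were 5 higher and 3 lower of 11 for HoxA, 4 higher and 3 lower of 10 for HoxB, 6 higher of 9 for HoxC and 6 higher of 8 for HoxD, whose other genes did not pass. This grouping was made after the values were seen.

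**Figure D2:**
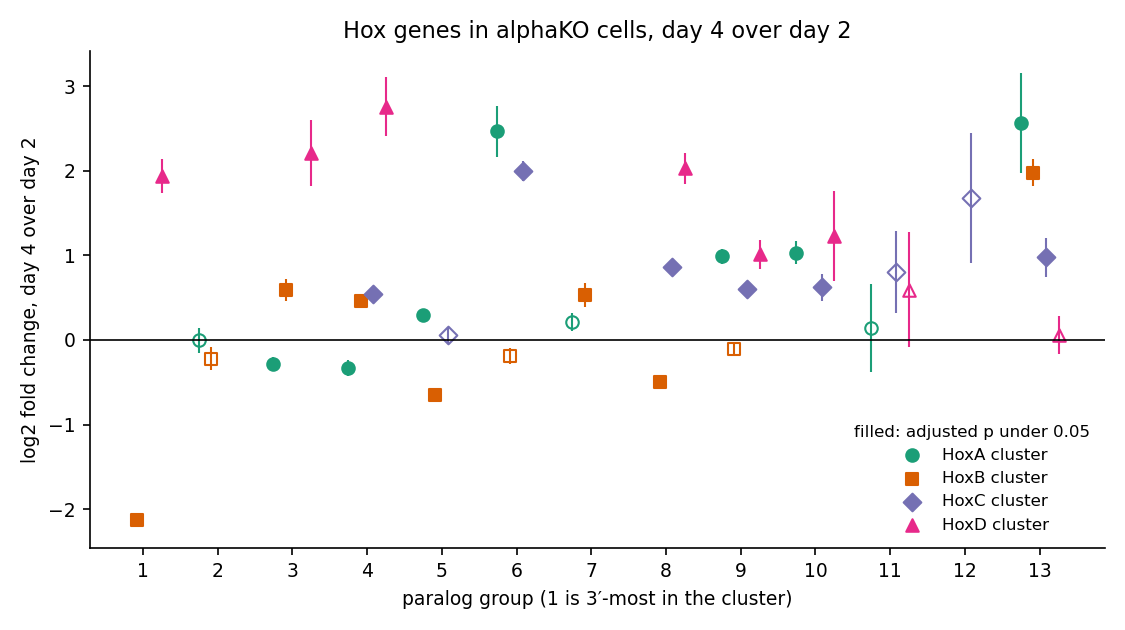
Log2 fold change of tested Hox genes in alphaKO cells, day 4 over day 2 (vertical axis, bars are SE), by paralog group (horizontal axis) and cluster (symbol); filled symbols passed an adjusted p of 0.05. Hoxb1 lies near -2 at the left, and every called gene from group 9 on lies above 0.

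Of 12 Cdx, Meis, Pbx and related factors 7 were higher and 5 lower. The Cdx genes, which open the trunk Hox genes, were lower. Cdx1 had 5.99, 6.74 and 6.11 CPM at day 4, against 42.7, 39.3 and 45.1 CPM at day 2 (-2.75 ± 0.12). Cdx2 had 2.58, 2.79 and 3.09 CPM at day 4, against 11.9, 9.7 and 12.5 CPM at day 2 (-2.01 ± 0.21). Cdx4 had 0 counted reads at day 4, against 21 at day 2, so it was at least 6.37-fold lower with a floor of 3 counts over the group. The Meis cofactors of Hox proteins rose: Meis3 by 1.32, Meis1 by 0.78 and Meis2 by 0.60, while Pbx2 changed by -0.28 and Pknox2 by -0.91.

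The largest increases, taken by a fixed rule (the 15 largest called changes among annotated genes that averaged 5 CPM or more on either day and whose libraries did not overlap), included neuropeptide, guidance and matrix genes. Sst, the somatostatin precursor, had 4.85, 7.23 and 5.02 CPM and 287 reads at day 4 and no read in any day 2 library, at least 105-fold higher. Cxcl15, a chemokine, had 789 reads at day 4, against 1 read at day 2, and Ntsr1, a neurotensin receptor, had 278 reads at day 4, against 1 at day 2. The ratios were 868 (95% counting interval 155 to 34300) and 306 (54.4 to 12100), where the intervals cover counting error only. These 3 genes were thus essentially unread at day 2. Rgs5, a pericyte gene that restrains G-protein signalling, had 46.1, 50.03 and 54.8 CPM at day 4, against 0.513, 0.485 and 0.378 CPM at day 2. Fat4, a giant protocadherin, had 104, 108 and 136 CPM at day 4, against 1.94, 1.56 and 2.37 CPM at day 2. Ecm1, an extracellular matrix protein, had 1175, 958 and 876 CPM at day 4, against 18, 15.4 and 18 CPM at day 2. That all day 4 libraries lay above all day 2 libraries in each was required by the rule. The others were the glutamate receptor subunit Gria2, the collagen Col14a1, the ephrin receptor Epha3, the kinesin Kif26b, the transcription factor Tfap2b, Plppr5, the matrix protein Smoc2, the netrin receptor Unc5c and Crispld2, with log2 fold changes of 4.64 (Crispld2) to 5.80 (Gria2). Unc5c reached 68.6, 80.1 and 81.4 CPM at day 4, against 2.8, 2.26 and 2.75 CPM at day 2.

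The 15 largest decreases by the same rule included secreted and metabolic genes. Csn3, a casein gene, had 2.96, 2.96 and 3.41 CPM at day 4, against 66.1, 71.8 and 70.8 CPM at day 2. Car2, a carbonic anhydrase, had 35, 35.3 and 36.1 CPM at day 4, against 301, 322 and 318 CPM at day 2. Both had lower means at day 0, 0.0366 and 29.7 CPM, and were thus highest at day 2. The Nodal antagonists Lefty2 and Lefty1 had 6.11, 5.42 and 6.75 and 16.6, 17.5 and 24.2 CPM at day 4, against 87.2, 89.8 and 104 and 163, 176 and 207 CPM at day 2. Clgn, an endoplasmic reticulum chaperone, had 25.3, 26.4 and 25.9 CPM at day 4, against 220.5, 229.5 and 219 CPM at day 2. Others were Fgfbp1, the neuropeptide precursor Vgf, the non-coding RNA Platr17, the nucleotidase Nt5e, the folate receptor Folr2, the dynein Dnah14, the apolipoprotein Apob and Mup6, with log2 fold changes of -4.41 (Mup6) to -3.003 (Apob). Mup6 belongs to a family of near-identical copies, so its value is uncertain. At the other end, the 5 genes above 500 CPM on both days with the smallest change were Ccng1 (602 CPM at day 4, against 603 CPM at day 2), mt-Co1 (4987 against 4975 CPM), Uba1, Peg10 and Ankrd11.

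The pluripotency programme continued to fall. Of 16 naive pluripotency genes 15 were lower and 1 did not pass, with a median log2 fold change of -0.76, and of 14 genes of general pluripotency 12 were lower and 2 did not pass, with a median of -1.59. Nanog, a core factor, had 75.7, 66 and 69.9 CPM at day 4, against 144, 142 and 156 CPM at day 2 (-1.06 ± 0.053, adjusted p = 7.58e-22), after 414 CPM at day 0. Pou5f1, which encodes Oct4, had 31.8, 29.6 and 35.6 CPM at day 4, against 76.7, 82.7 and 81.3 CPM at day 2 (-1.32 ± 0.063, adjusted p = 2.44e-22). Each day 4 library was below each day 2 library for both. Among the naive genes the largest decreases were those of Gdf3 (-2.61 ± 0.077), Tcl1 (-1.22 ± 0.19) and Klf2 (-1.12 ± 0.076), and Zfp42, the marker Rex1, changed by -1.05 ± 0.068. Among the general genes, the changes included those of Utf1 (-2.64 ± 0.11), Dnmt3l (-2.42 ± 0.077), Dppa2 (-2.38 ± 0.067), Dppa5a (-1.95 ± 0.059) and L1td1 (-1.90 ± 0.057). The let-7 antagonist Lin28a averaged 104 ± 2.81 CPM at day 4, against 434 ± 12.4 CPM at day 2 (-2.06 ± 0.039). Some genes had already dropped by day 2 and moved little after it: Klf4 averaged 670.2, 37.7 and 31.6 CPM over days 0, 2 and 4, Tdgf1 891, 11.8 and 11.4 CPM and Tet1 869, 96.2 and 92 CPM. Neither Tdgf1 nor Tet1 passed the test (-0.06 and -0.06). The naive gene that did not pass was Nr0b1 (-0.27).

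Genes of the formative and primed epiblast gave 8 lower and 2 higher of 12. Pou3f1 fell by 2.45 on the log2 scale, and the FGF effector Etv5 fell by 1.82. Fgf5, the classical primed marker, rose to 6.55, 7.84 and 8.94 CPM at day 4, against 1.48, 1.89 and 1.67 CPM at day 2. Components of LIF signalling, which maintains naive cells, mostly rose, with 6 of 10 higher and 2 lower. Among them were the receptor Lifr (1.66 ± 0.068), the transducer Stat3 (1.28 ± 0.052), the inhibitor Socs3 (1.49 ± 0.10), the receptor subunit Osmr (1.46 ± 0.27) and the kinase Jak2 (0.89 ± 0.074). The kinase Pim1 fell (-1.57 ± 0.057). Germline genes gave 12 lower and 3 higher of 16. Stra8, the retinoic acid gene of meiotic entry, averaged 12.4, 381 and 81.1 CPM over days 0, 2 and 4 (-2.23 ± 0.048 from day 2 to day 4). The piRNA gene Piwil2 and the germ cell RNA-binding gene Dazl also fell (-2.64 and -1.78), but the meiotic cohesin Rec8 rose (1.17 ± 0.064).

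Neuronal genes split into those that appeared and those that receded. Of 27 proneural and neuronal genes tested, 14 were higher, all of them by at least 2-fold, and 9 were lower, 5 of them by at least 2-fold. The median log2 fold change was 1.01, but 8 of the 27 averaged under 1 CPM at day 2. Summed over the list, the level fell: 282.3, 327.7 and 354.7 CPM at day 4, against 405.1, 397 and 394.4 CPM at day 2. Neurog1, a proneural factor of sensory and dorsal neurons, had 4.79, 9.15 and 8.74 CPM at day 4, against 0.457, 0.377 and 0.485 CPM at day 2 (4.08 ± 0.37, adjusted p = 2.59e-13). Nhlh2, a factor of newly born neurons, had 5.23, 8.71 and 10.48 CPM at day 4, against 0.228, 0.431 and 0.647 CPM at day 2 (4.19 ± 0.37, adjusted p = 1.51e-13). Both were under 1 CPM in all day 2 libraries and above 4 CPM in all day 4 libraries, with the first day 4 library the lowest. Neurod4 had 133 reads at day 4, against 2 at day 2 (ratio 73.1, counting interval 19.8 to 610), and Neurog2 had 54 reads at day 4, against 2 at day 2 (29.7, 7.83 to 251). Genes of young neurons followed. Dcx, a microtubule protein of migrating neurons, had 17.4, 19.2 and 22.2 CPM at day 4, against 4.39, 4.42 and 3.94 CPM at day 2 (2.21 ± 0.14). The RNA-binding protein gene Elavl3 had 6.68, 9.97 and 12.9 CPM at day 4, against 5.25, 4.1 and 3.94 CPM at day 2 (1.16 ± 0.17). Map2 had 23.2, 36.4 and 38.4 CPM at day 4, against 11.2, 11.5 and 10.9 CPM at day 2 (1.55 ± 0.13). Cntn2, an axonal adhesion molecule, had 24.1, 29.2 and 34.9 CPM at day 4, against 7.7, 8.52 and 10.4 CPM at day 2 (1.72 ± 0.14). Isl1, a motor and sensory neuron factor, had 9.01, 8.22 and 8.29 CPM at day 4, against 0.97, 1.24 and 1.62 CPM at day 2 (2.73 ± 0.26). All day 4 libraries of these 5 genes were above all day 2 libraries.

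Other neuronal genes went down. Gap43, a growth cone protein, had 13.9, 11.5 and 10.7 CPM at day 4, against 96.1, 96.8 and 89 CPM at day 2 (-2.96 ± 0.09), the intermediate filament Ina changed by -1.95 ± 0.079 and Ebf1 by -1.78 ± 0.12. Tubb3, the neuronal tubulin, had 34.6, 44.9 and 52.5 CPM at day 4, against 59.8, 57 and 55 CPM at day 2 (-0.38 ± 0.082), and Stmn2 changed by -0.47 ± 0.069. The first alphaKO library of day 4 was the lowest of the 3 for 18 of the 27 genes (66.7%) and for 11 of the 14 that rose, while over all genes tested it was the lowest for 35%. It was at the same time the highest of the 3 for all 12 contractile genes described below, against 35.2% of all genes tested. The name of that library ends in S27, after the WT day 4 libraries at S24 to S26. The other alphaKO day 4 libraries end in S44 and S45, before the fullKO day 4 libraries at S46 to S48. Neither the part of this numbering nor what else sets the first library apart was tested. Without it, the same number of neuronal genes was called higher (14) and 7 were called lower, with a median of 0.96. In bulk RNA, fewer cells of a type and less RNA per cell cannot be told apart.

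**Figure D3:**
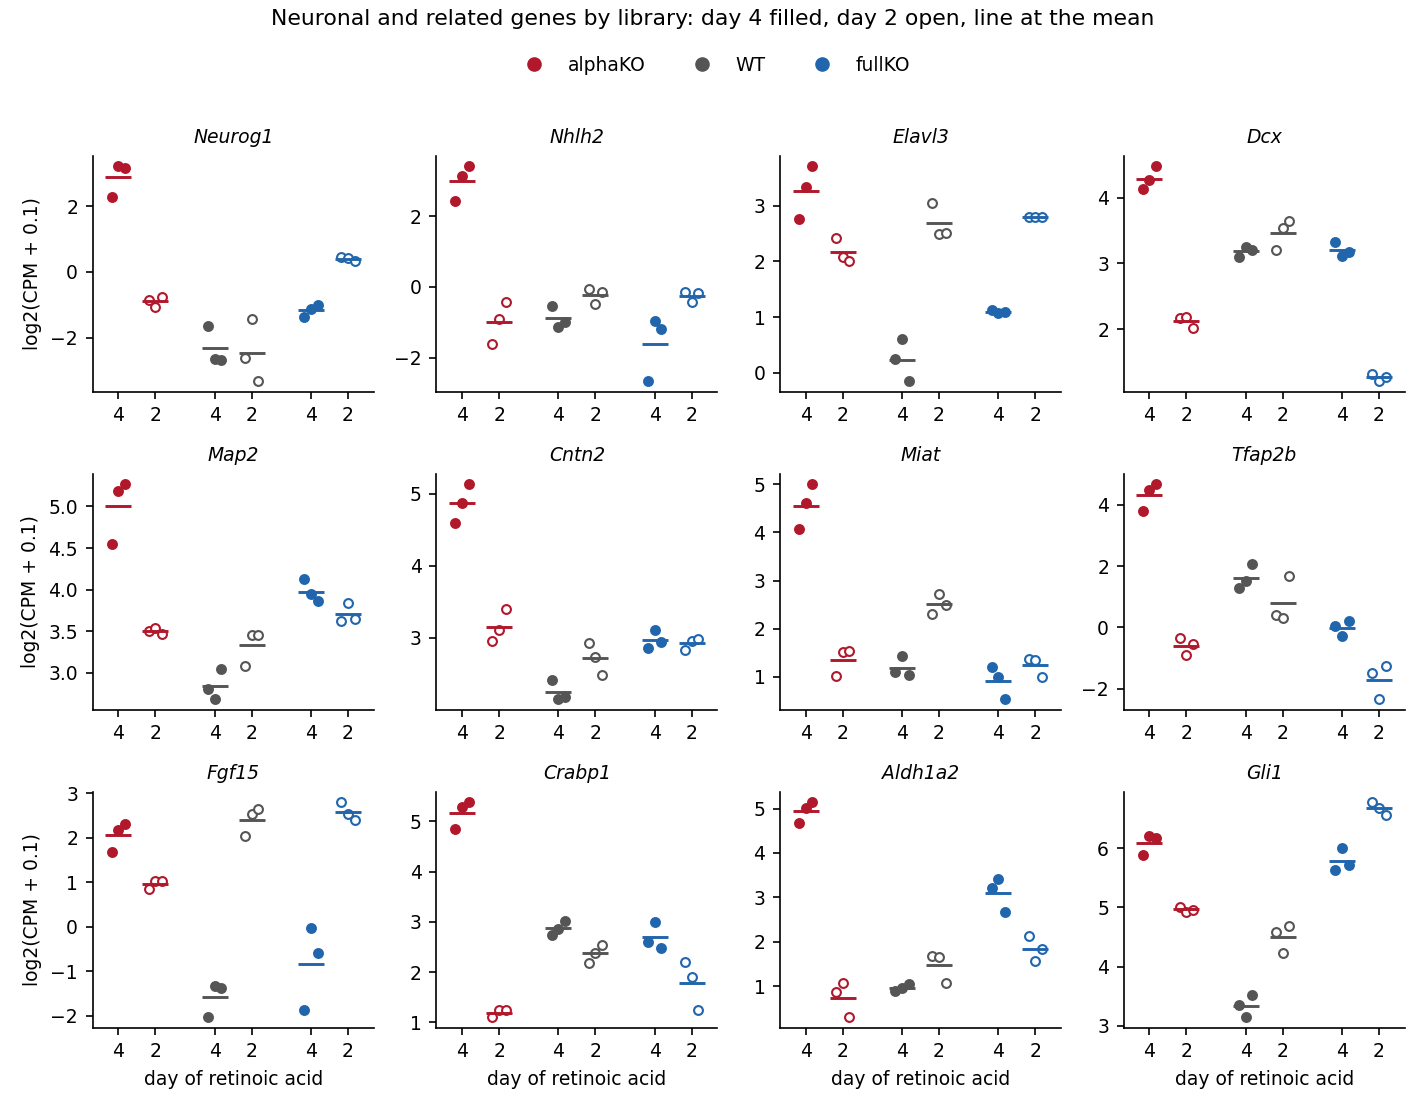
Levels of 12 genes named in the text, neuronal ones first, as log2(CPM + 0.1) on the vertical axis for each library of alphaKO (red), WT (grey) and fullKO (blue) cells; filled points are day 4, open points day 2 and bars mark the mean of 3 libraries on this scale. In alphaKO cells every day 4 library is above every day 2 library in all 12 panels, and the first day 4 library (leftmost point) is the lowest of its day in each. The genes were picked from those that rose in alphaKO cells, and Isl1, which rose with its first day 4 library highest, is not shown. Of the 27 neuronal genes tested 9 were lower at day 4, and the first day 4 library was the lowest for 18.

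Neural progenitor genes gave 11 higher and 4 lower of 20 tested. Dbx1 and Dbx2, factors of spinal interneuron progenitors, went apart at low levels (3.17 ± 0.69 to 1.04 CPM and -2.86 ± 0.46 to 0.222 CPM). Sox11 rose to 295, 316 and 331 CPM at day 4, against 91, 92.9 and 100.4 CPM at day 2 (1.73 ± 0.07). Sox9 rose by 2.07 ± 0.11, the cell adhesion gene Ncam1 by 1.395 ± 0.087, Pax3 by 1.35 ± 0.20 and Pax6 by 0.91 ± 0.11. Sox1, an early neuroectoderm factor, fell to 20.5, 28.4 and 27.5 CPM at day 4, against 84.7, 97.3 and 82.8 CPM at day 2 (-1.79 ± 0.088), as did the dorsal factor Msx1 (-2.34 ± 0.072). Of 12 neural crest genes 6 rose and 6 fell. Tfap2b had 13.9, 22.3 and 25.3 CPM at day 4, against 0.685, 0.431 and 0.593 CPM at day 2 (5.16 ± 0.32). Snai2 rose by 1.95 ± 0.17, whereas Sox10 and Tfap2a fell (-2.88 ± 0.38 and -1.400 ± 0.19).

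Signalling genes were regrouped. In the Notch pathway, which holds back neuronal differentiation, 10 of 17 genes tested were higher and 4 lower. The receptors Notch1 and Notch3 rose (1.53 ± 0.078 and 1.21 ± 0.056). The target Hey1 had 4.66, 4 and 5.4 CPM at day 4, against 0.685, 0.593 and 0.755 CPM at day 2, and Hey2 and Heyl also rose (1.42 ± 0.33 and 3.04 ± 0.68), Heyl to a mean of 1.4 CPM. The ligand Dll1 fell to 3.78, 6.85 and 4.63 CPM at day 4, against 11.5, 12.7 and 11.7 CPM at day 2 (-1.22 ± 0.15). Of 13 hedgehog genes 10 were higher and 1 lower (2 lower without the second day 2 library). Shh, the ligand, had 12.7, 14.3 and 11.3 CPM at day 4, against 1.71, 1.62 and 1.4 CPM at day 2 (3.02 ± 0.20), and Ihh rose by 1.68 ± 0.21. Gli1, the transcription factor that reports pathway activity, had 59.2, 73.7 and 72.3 CPM at day 4, against 32.1, 30.3 and 31.1 CPM at day 2 (1.14 ± 0.09). The coreceptors Boc and Gas1 also rose (1.27 ± 0.11 and 1.23 ± 0.07), but the receptor Ptch1 was slightly lower (-0.24 ± 0.055). The days of Shh and of Gli1 did not overlap.

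Of 17 Nodal and BMP genes tested 8 were higher and 6 lower. Nodal fell to 25.5, 19.6 and 21.8 CPM at day 4, against 104, 109 and 114 CPM at day 2 (-2.29 ± 0.069), together with its antagonists Lefty1 and Lefty2. The BMP ligands Bmp7 and Bmp4 rose (3.03 ± 0.12 and 1.82 ± 0.094), and so did the antagonists Chrd and Fst (1.94 ± 0.21 and 2.22 ± 0.13). For the FGF pathway and its feedback the counts were 5 higher and 8 lower of 17. Spry4, Dusp6 and Il17rd, all negative feedback genes, fell (-1.67 ± 0.087, -1.31 ± 0.056 and -1.24 ± 0.045), while Spry1 and the receptors Fgfr2 and Fgfr3 rose (1.57 ± 0.10, 0.82 ± 0.068 and 1.12 ± 0.15). Of 18 Wnt genes 9 were higher and 5 lower, with Rspo3 (2.85 ± 0.20), Wnt6 (2.15 ± 0.13), Wnt5a (2.81 ± 0.15), Lgr5 (2.56 ± 0.20) and Nkd1 (2.14 ± 0.13) up and Wnt8a (-2.04 ± 0.29), Sfrp5 (-1.36 ± 0.17) and Dkk1 (-0.96 ± 0.15) down.

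Genes of other lineages moved as well. Of 13 mesoderm genes tested 6 were higher and 5 lower, or 3 lower without the third day 4 library or without the second or the third day 2 library. Hand2, a factor of lateral mesoderm and heart, had 28.2, 32.1 and 34.5 CPM at day 4, against 3.65, 5.23 and 4.53 CPM at day 2 (2.81 ± 0.13). Foxf1, Meox1, Twist1 and Gata2 rose (2.24 ± 0.14, 2.24 ± 0.25, 2.20 ± 0.13 and 1.79 ± 0.11), while the primitive streak genes Mixl1 and Eomes fell (-1.498 ± 0.44 and -1.15 ± 0.15). T, another primitive streak gene, passed narrowly (-1.37 ± 0.57, adjusted p = 0.0383) and lost the call without any one of the 6 libraries other than the first of day 4 (adjusted p = 0.0522 to 0.171). T and Mixl1 had means of 0.202 and 0.386 CPM at day 4, against 0.532 and 1.09 CPM at day 2. Of 23 primitive endoderm genes 11 were higher and 6 lower. Of the 11 that rose, the third day 4 library was the highest of its day for 8 (72.7%), against 35.9% of all genes that rose, and its part in the result was not tested. The endoderm factors Gata4, Gata6 and Sox17 rose by 0.92 ± 0.085, 1.16 ± 0.081 and 1.10 ± 0.11, and the basement membrane collagens Col4a1 and Col4a2 by 1.69 ± 0.072 and 1.75 ± 0.082, Col4a1 to 2501 CPM. Pth1r, a parathyroid hormone receptor of parietal endoderm, rose by 2.01 ± 0.085. The lipid carrier and the endocytic receptor Apob and Lrp2 fell (-3.003 ± 0.17 and -1.54 ± 0.072). Epithelial genes gave 11 higher and 6 lower of 18 (3 lower without the first day 4 or the first day 2 library, 2 without the third day 4 library). The first day 4 library was the highest of its day for 8 of the 11 that rose (72.7%), against 32.8% of all genes that rose. Cdh3 and Krt19 rose (2.38 ± 0.071 and 1.61 ± 0.10), while Cdh1, or E-cadherin, and Epcam fell (-0.73 ± 0.047 and -0.90 ± 0.066).

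Markers of fibroblasts summed to 1156 to 1287 CPM at day 4, against 422.4 to 507.8 CPM at day 2; 8 of the 15 markers were higher and 2 lower. Col3a1, a fibrillar collagen, had 440.3, 378 and 395 CPM at day 4, against 18.8, 16.4 and 22.3 CPM at day 2 (4.40 ± 0.14, adjusted p = 3.19e-29), after 292 CPM at day 0. The collagen Col5a1, the oxidase Loxl1, the protease Mmp2 and the fibrillin Fbn1 also rose (1.80 ± 0.10, 1.96 ± 0.13, 1.79 ± 0.094 and 1.597 ± 0.10). Lum was under 1 CPM on both days, the only marker of the list to be so, and Col1a2 fell (-0.90 ± 0.13). Col1a1 averaged 408, 85 and 168 CPM over days 0, 2 and 4, so that its day 4 level was still below that of day 0. The summed level at day 0 was 1695 to 2629 CPM. The 12 contractile markers summed to 2325 to 3261 CPM at day 4, against 1448 to 1551 CPM at day 2, and 9 were higher and 2 lower. Acta2, smooth muscle actin, had 689, 413 and 402 CPM at day 4, against 51.3, 46.3 and 82.6 CPM at day 2 (3.06 ± 0.15). Myl9, a myosin light chain, had 136, 101 and 95 CPM at day 4, against 30.4, 25.4 and 28.9 CPM at day 2 (1.97 ± 0.10). Myh11, smooth muscle myosin, had 12.8, 5.75 and 6.82 CPM at day 4, against 2.23, 1.56 and 2 CPM at day 2 (2.12 ± 0.24). None of these 12 markers averaged under 1 CPM on either day. The part of such cells in the changes of other lists was not tested.

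Most proliferation genes were lower at day 4. Of 30 genes of G1/S and DNA replication 28 were lower, and of 26 genes of G2 and mitosis 25 were lower, and the other 3 genes did not pass the test; the median log2 fold changes were -0.60 and -0.59. Mcm5, a subunit of the replicative helicase, had 306, 321 and 316 CPM at day 4, against 583, 595 and 601 CPM at day 2 (-0.92 ± 0.036, adjusted p = 1.76e-25). Pola1, the catalytic subunit of DNA polymerase alpha, had 59.5, 59.7 and 62.1 CPM at day 4, against 115, 119.5 and 112 CPM at day 2 (-0.93 ± 0.05). Cdc20, an activator of the anaphase-promoting complex, had 131, 132 and 125 CPM at day 4, against 231, 233 and 230.4 CPM at day 2 (-0.84 ± 0.043, adjusted p = 2.95e-21). Ccnb2, a mitotic cyclin, had 52.4, 55.3 and 50.3 CPM at day 4, against 90.1, 92.6 and 95.4 CPM at day 2 (-0.81 ± 0.056). The days did not overlap for these 4 genes. Cdc6, which loads the helicase, and Hmmr, a spindle protein, were the genes that reached 2-fold (-1.13 ± 0.055 and -1.02 ± 0.047). Ccne2, Gins3 and Cenpe did not pass the test (-0.17, -0.09 and -0.11), though Ccne2 passed without the second day 4 library and Cenpe without the third (adjusted p = 0.0312 and 0.0083). Both also passed when only the alphaKO day 4 and day 2 libraries were fitted (adjusted p = 0.0433 and 0.0158), and Cenpe passed with RLE scaling (0.045) and with a filter of 1 CPM in 3 libraries (0.0423).

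The promoters of 4 of these genes are printed because their 2 classes carry different motifs. Capitals mark CCAAT (or ATTGG, its reverse complement), the cell cycle homology region CHR searched as TTTGAA or TTCGAA, and the E2F motif searched as TTTCCCGC or TTTGGCGC (GCGCCAAA is a reverse complement), all on both strands; no marked match overlaps another. The printed bases are the 250 before the annotated start of Cdc20 (chr4:118437344-118437593, minus strand), Ccnb2 (chr9:70421555-70421804, minus strand), Mcm5 (chr8:75109259-75109508, plus strand) and Pola1 (chrX:93632156-93632405, minus strand), from RefSeq, GRCm38.p6. CCAAT is marked in all, CHR in the mitotic pair and E2F in the replication pair. Of the 2 CHR matches in the 300-base window of Ccnb2 only 1 is marked, starting 167 bases before the start. Of the 3 CCAAT matches in the window of Mcm5, 2 are marked. The unmarked matches of these windows do not lie wholly within the printed bases.
Cdc20: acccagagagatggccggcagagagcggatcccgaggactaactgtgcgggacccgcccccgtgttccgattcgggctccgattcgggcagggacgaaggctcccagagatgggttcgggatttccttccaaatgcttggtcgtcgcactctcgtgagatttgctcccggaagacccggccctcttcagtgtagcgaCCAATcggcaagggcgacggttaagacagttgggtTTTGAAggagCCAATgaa
Ccnb2: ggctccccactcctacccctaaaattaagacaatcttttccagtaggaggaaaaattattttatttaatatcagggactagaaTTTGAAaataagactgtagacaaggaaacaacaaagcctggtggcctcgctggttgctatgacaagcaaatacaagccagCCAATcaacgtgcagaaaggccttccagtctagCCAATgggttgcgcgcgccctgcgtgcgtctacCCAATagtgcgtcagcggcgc
Mcm5: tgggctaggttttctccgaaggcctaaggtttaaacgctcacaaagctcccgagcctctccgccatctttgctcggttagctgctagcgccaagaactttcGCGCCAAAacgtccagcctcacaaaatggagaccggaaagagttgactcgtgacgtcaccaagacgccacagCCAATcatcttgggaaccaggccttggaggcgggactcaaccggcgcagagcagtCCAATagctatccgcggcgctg
Pola1: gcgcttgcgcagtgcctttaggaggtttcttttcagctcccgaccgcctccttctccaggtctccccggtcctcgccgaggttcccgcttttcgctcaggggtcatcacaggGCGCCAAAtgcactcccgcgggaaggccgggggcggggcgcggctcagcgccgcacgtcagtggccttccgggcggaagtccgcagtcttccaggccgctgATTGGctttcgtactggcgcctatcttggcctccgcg
In 300-base windows, CHR was found in 76.2% of the 21 windows of the G2 and mitosis genes and 16% of the 25 windows of the replication genes, against 19.2% of all 32851 promoter windows. E2F was found in none of the mitotic windows and 36% of the replication windows, against 1.56% of all windows, and CCAAT in 85.7% and 76%, against 37.4%. These letters describe the windows and are no measure of binding.

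Of 16 G1 cyclins, cyclin-dependent kinases and their inhibitors 11 were higher and 5 did not pass the test. Cdkn1c, the p57 inhibitor, had 149.8, 168 and 163 CPM at day 4, against 55.6, 57.8 and 52.1 CPM at day 2 (1.54 ± 0.066), and Cdkn2b, Cdkn2a and Cdkn1a rose by 2.18 ± 0.13, 1.61 ± 0.10 and 0.77 ± 0.08. The pocket protein Rbl2 rose by 1.54 ± 0.12, and the growth-promoting cyclins Ccnd1 and Ccnd2 rose as well (1.46 ± 0.071 and 1.45 ± 0.07). Of 20 p53 target genes 9 were higher and 6 lower (3 lower without the third day 4 library), with the antiproliferative gene Btg2 at 1.19 ± 0.062, the death receptor Fas at 1.41 ± 0.32 and the p53 ligase Mdm2 at -0.28 ± 0.061. Among 28 histone chaperones 18 were lower and 2 higher. Besides Nap1l1, Ncl, Nasp, Npm1, Set and the FACT subunit Supt16 fell (-0.92 ± 0.034, -0.84 ± 0.041, -0.84 ± 0.033, -0.51 ± 0.034 and -0.67 ± 0.044). The HIRA partners Ubn1 and Ubn2 rose (0.53 ± 0.055 and 0.53 ± 0.06), while the paralogs Nap1l2, Nap1l3, Nap1l4 and Nap1l5 did not pass the test, Nap1l4 at 202, 208 and 207 CPM at day 4, against 219, 216 and 210.5 CPM at day 2 (adjusted p = 0.0448 when only these groups were fitted). Of 83 cytosolic ribosomal protein genes 79 were lower, with a median of -0.42.

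Imprinted genes, many of which act in fetal growth, were mostly higher. Of 29 tested 16 were higher, 15 of them by at least 2-fold, and 5 were lower, with a median of 1.03. Igf2, the fetal growth factor, had 234, 231 and 236 CPM at day 4, against 18.5, 18.6 and 19.6 CPM at day 2 (3.62 ± 0.10, adjusted p = 2.43e-31). Peg3, a zinc finger gene, had 2978, 2910.0 and 2959 CPM at day 4, against 398, 384 and 371 CPM at day 2 (2.94 ± 0.055). Its neighbour Usp29 rose by 3.57 ± 0.15; reads of these adjoining genes may be shared in part. Plagl1, Dlk1 and Igf2r rose by 2.49 ± 0.067, 2.31 ± 0.072 and 2.06 ± 0.053, and the adjacent Zim1 by 2.80 ± 0.089, whereas Phlda2, a brake on placental growth, changed by -1.72 ± 0.15. The days of Igf2 and of Peg3 did not overlap. H19 and Grb10 did not pass (0.31 and 0.05).

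Subunits of chromatin complexes changed in both directions. Of 23 BAF remodeller subunits tested 13 were higher, 6 by at least 2-fold, and 5 were lower. Bcl11a had 29.5, 34.2 and 33 CPM at day 4, against 2.4, 3.99 and 3.08 CPM at day 2 (3.35 ± 0.17). The BAF-associated Bcl11b and the subunits Smarcd3, Dpf3, Smarca2 and Dpf1 rose by 2.56 ± 0.21, 2.30 ± 0.14, 2.29 ± 0.24, 1.70 ± 0.09 and 1.58 ± 0.14; the progenitor subunit Actl6a fell (-0.38 ± 0.05). Dpf1, Dpf3 and Smarcd3 are known from neural and muscle forms of the complex. Of 26 Polycomb genes 8 were higher and 11 lower, with a median of -0.03, against 30.1% and 28.1% of all genes tested. Cbx8 was up (1.04 ± 0.15) and Epop and Jarid2 were down (-1.05 ± 0.058 and -0.76 ± 0.044). The de novo methylation genes Dnmt3l and Dnmt3b were lower and Tet3 was higher (-2.42, -1.52 and 1.16).

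The same 2 days were compared in the other lines, and the difference between lines was tested as an interaction in the same model. WT cells had 5559 genes higher (30.2%) and 5373 lower (29.2%) at day 4, and fullKO cells 5447 (29.6%) and 5327 (28.9%). The change was more positive in alphaKO than in WT cells for 2828 genes (15.4%) and more negative for 2406 (13.1%); against fullKO cells the counts were 1493 (8.11%) and 1549 (8.41%). Fitted on only the groups compared, more genes were more negative than more positive in both contrasts, with 2578 more positive and 2978 more negative against WT, and 1387 and 2063 against fullKO cells. Both contrasts use the same alphaKO libraries, so their results are given side by side and not counted as 2 independent observations.

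In both contrasts, more of the listed neuronal genes had a more positive than a more negative change in alphaKO cells. Some genes known from neurons, such as Stmn4, stood at the negative end, as given below. Of the 27 tested, 16 had a more positive change in alphaKO than in WT cells and 1 a more negative one, and against fullKO cells 14 and 3. In WT cells 5 of these genes were higher and 14 lower at day 4, and in fullKO cells 3 and 15, so that the medians were 1.01 in alphaKO, -0.686 in WT and -0.715 in fullKO cells. Elavl3 averaged 1.11 CPM at day 4, against 6.41 CPM at day 2, in WT cells and 2.04 CPM at day 4, against 6.85 CPM at day 2, in fullKO cells. The change in alphaKO cells exceeded these by 3.69 ± 0.29 and 2.90 ± 0.26 on the log2 scale (adjusted p = 8.22e-14 and 9.1e-12). For Neurog1 the difference was 4.11 ± 1.14 against WT and 5.86 ± 0.57 against fullKO cells, the one against WT losing its call without the second WT library of day 2 (2.54, adjusted p = 0.417). For Nhlh2 the differences were 4.98 ± 0.62 and 5.61 ± 0.62. Dcx differed from WT (2.50 ± 0.20) but not detectably from fullKO (0.22 ± 0.23, adjusted p = 0.592), where it also rose (1.98).

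By the naming rule, the 8 genes with the most positive difference from WT were Ntsr1, Fgf15, Sst, Nhlh2, Dcc, Aldh1a2, Miat and Tfap2b, and from fullKO Neurog1, Nhlh2, Fgf15, Robo3, Miat, Dcc, Tfap2b and Crabp1. Dcc and Robo3 are receptors of axon guidance, and Miat is a non-coding RNA of neurons and other cells; genes known from neurons stood at the negative end as well, as given below. Robo3 had 10.52, 13.4 and 18.7 CPM at day 4, against 0.913, 0.539 and 0.971 CPM at day 2 in alphaKO cells. It averaged 1.31 CPM at day 4, against 1.02 CPM at day 2, in WT cells and 1.15 CPM at day 4, against 1.38 CPM at day 2, in fullKO cells. Miat had 16.7, 24.3 and 31.9 CPM at day 4, against 1.94, 2.75 and 2.81 CPM at day 2, with changes of 3.27 in alphaKO, -1.34 in WT and -0.32 in fullKO cells. Fgf15, a hindbrain and midbrain growth factor, had a mean of 4.03 CPM at day 0 in alphaKO cells. It rose there after day 2 (3.09, 4.38 and 4.89 CPM at day 4, against 1.71, 1.94 and 1.94 CPM at day 2). It fell in WT cells (0.243 CPM at day 4, against 5.3 CPM at day 2) and in fullKO cells (0.539 CPM at day 4, against 5.91 CPM at day 2). Aldh1a2 averaged 1.85 CPM at day 4, against 2.71 CPM at day 2, in WT cells and 8.67 CPM at day 4, against 3.52 CPM at day 2, in fullKO cells. The change in alphaKO cells exceeded theirs by 4.81 ± 0.33 and 2.96 ± 0.28. The difference of Sst from WT rested on few reads (50 at day 4, against 2 at day 2, in WT cells). It lost its call without any one of the 3 alphaKO day 2 libraries, the second alphaKO day 4 library or the second or the third WT day 2 library (adjusted p = 0.0524 to 0.132). That of Tfap2b from fullKO did so without the third fullKO day 2 library (2.83, adjusted p = 0.0542).

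At the negative end, the rule gave Stmn4, Mocos, Tent5a, Cemip, Des, Vgf, Gbp2b and Ppm1j against WT, and Stmn4, Mybpc3, Filip1, Ankrd1, Postn, Adamts12, Ednrb and Sncg against fullKO cells. Among them Vgf, Sncg and Stmn4 are known from neurons. Stmn4, a neuronal stathmin, had 3.15, 1.31 and 2.12 CPM at day 4, against 15.9, 14.1 and 11.6 CPM at day 2 in alphaKO cells. It averaged 29.6 CPM at day 4, against 21.3 CPM at day 2, in WT cells and 7.73 CPM at day 4, against 6.21 CPM at day 2, in fullKO cells. Des, the muscle intermediate filament desmin, fell in alphaKO cells (-0.62 ± 0.10) and averaged 53.7 CPM at day 4, against 15.6 CPM at day 2 in WT cells. Contractile genes as a list gave 7 of 12 with a more negative change than in WT and all 12 than in fullKO cells, and their medians were 0.925 in alphaKO, 1.75 in WT and 2.42 in fullKO cells. Fibroblast markers gave 7 of 15 more positive than in WT and 10 of 15 more negative than in fullKO cells. Primitive endoderm and epithelial genes each gave 11 more negative and 1 more positive against fullKO cells.

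**Figure D4:**
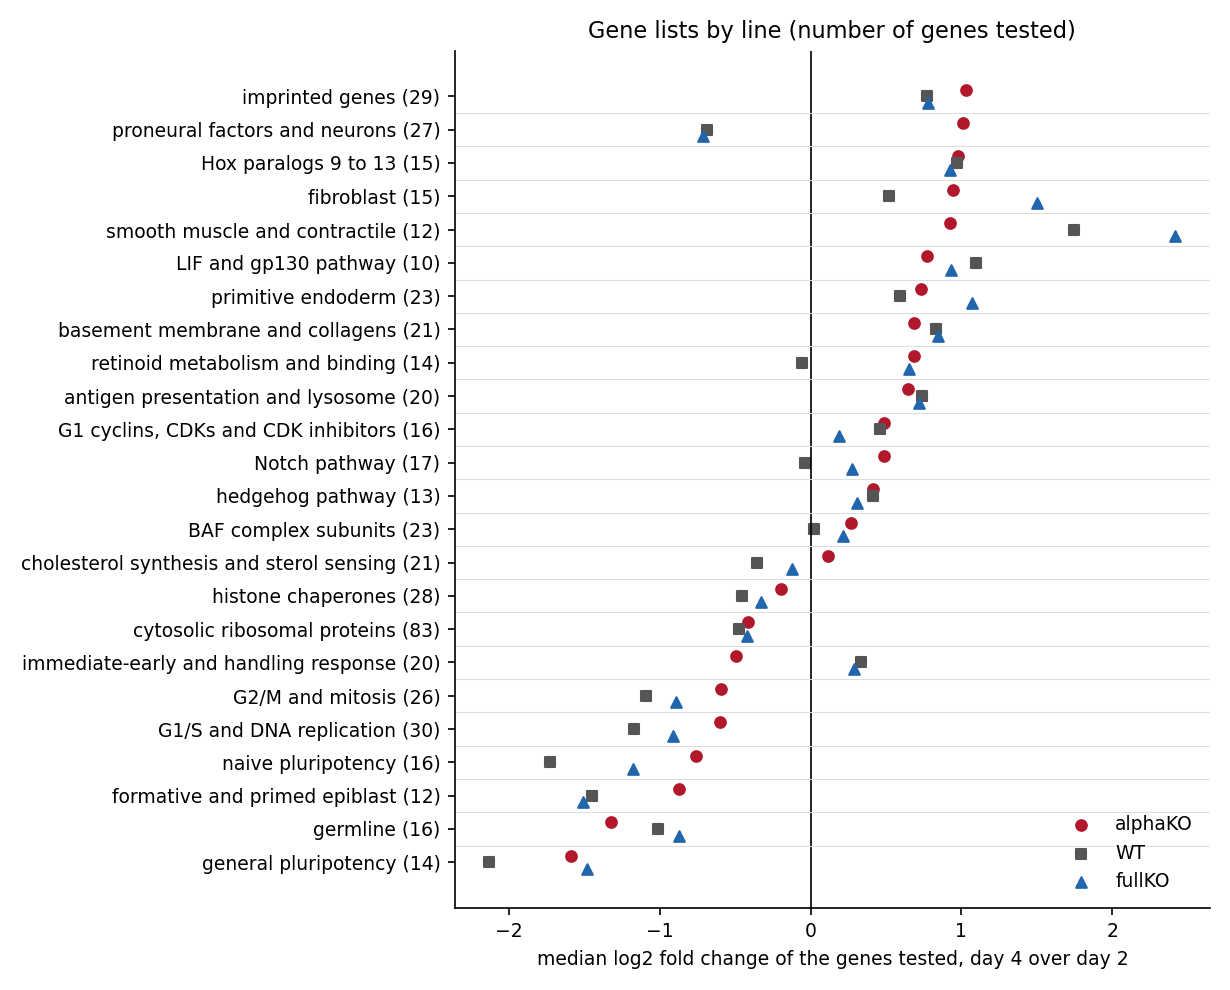
Median log2 fold change, day 4 over day 2, of the tested genes of 24 lists (rows, number of genes in brackets) in alphaKO (circles), WT (squares) and fullKO cells (triangles). The neuronal median is above 0 in alphaKO cells (1.01) and below 0 in WT (-0.686) and fullKO cells (-0.715); medians carry no test.

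Proliferation genes fell less in alphaKO cells. Of the 30 replication genes 27 had a less negative change than in WT and 18 than in fullKO cells, with medians of -0.60 in alphaKO, -1.17 in WT and -0.91 in fullKO cells, and no other gene of the list passed in either contrast. For the 26 mitotic genes the counts were 25 and 19, and the medians -0.59, -1.09 and -0.89. Mcm5 changed by -0.92 in alphaKO, -1.72 in WT and -1.25 in fullKO cells (differences 0.81 ± 0.052 and 0.33 ± 0.051). Cdc20 differed little between the lines, with changes of -0.84 in alphaKO, -0.91 in WT and -0.93 in fullKO cells. Naive pluripotency genes also fell less, with 11 of 16 more positive than in WT and 8 than in fullKO cells, and 3 and 2 more negative. Klf5 and Tbx3 were lower at day 4 in alphaKO cells (-1.07 and -0.44) but higher in WT cells (0.30 and 0.44). Nanog averaged 70.5 CPM at day 4, against 147 CPM at day 2, in alphaKO cells, and 6.2 CPM at day 4, against 19.5 CPM at day 2, in WT cells.

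**Figure D5:**
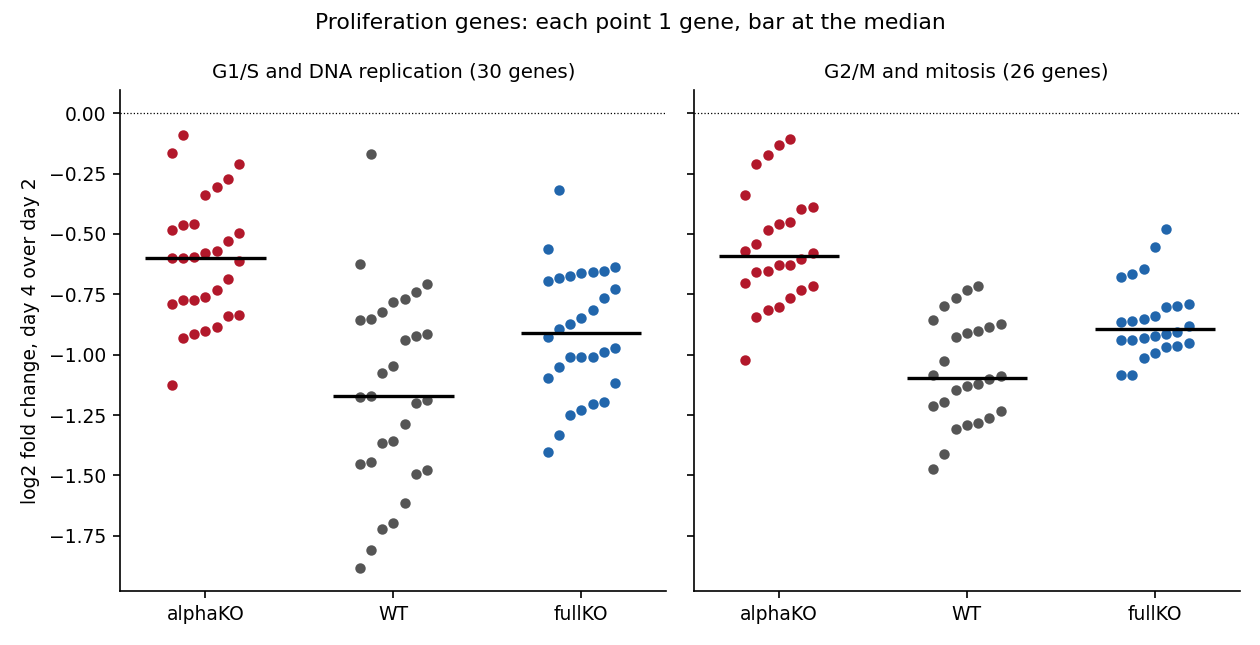
Log2 fold change, day 4 over day 2, of 30 replication genes (left) and 26 mitotic genes (right) in alphaKO, WT and fullKO cells; each point is 1 gene and the bar is the median. All points lie below 0, and the alphaKO medians of -0.60 and -0.59 are the closest to it.

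Signalling and metabolic genes also differed between the lines. The hedgehog target Gli1 changed by 1.14 in alphaKO, -1.18 in WT and -0.88 in fullKO cells (differences 2.31 ± 0.15 and 2.01 ± 0.12), and Ptch1 by -0.24, -1.58 and -1.13. Over that list 7 of 13 genes were more positive and 2 more negative than in WT, and 5 and 2 than in fullKO cells. Notch genes gave 10 of 17 more positive than in WT and 7 than in fullKO cells. Of 21 cholesterol synthesis genes 12 were higher and 4 lower in alphaKO cells, whereas 17 were lower in WT cells, and 2 were higher and 11 lower in fullKO cells. Lss, the lanosterol synthase, changed by 0.25 ± 0.043 in alphaKO and -0.69 in WT cells. The 16 genes of the 2-cell-like state tested are mostly multi-copy and so uncertain. In alphaKO cells 3 of them were higher, against 30.1% of all genes tested, and 13 did not pass. In WT cells 10 were lower, and in fullKO cells 7. Of the 16, 11 had a more positive change in alphaKO than in WT cells and 5 than in fullKO cells. Zscan4d had 13, 12.4 and 14.1 CPM at day 4, against 13, 12.9 and 12.6 CPM at day 2 in alphaKO cells and averaged 2.88 CPM at day 4, against 10.2 CPM at day 2 in WT cells. By contrast p53 targets were more negative for 10 of 20 genes against WT and 9 against fullKO cells. Rarb did not differ detectably between lines in its rise (-0.05 ± 0.13 against WT and 0.01 ± 0.13 against fullKO, adjusted p = 0.811 and 0.967), nor did Hoxb1 against WT (-0.06 ± 0.094, adjusted p = 0.703).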

How the data were processed

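Poly(A) RNA libraries were made with the KAPA Stranded mRNA-Seq kit, per the labels' protocols, and reads were handled with FastQC and STAR 2.7.1a on the mm10 build, per the submitters' processing notes. The counting tool, strand setting and annotation were not given in the sources used here. The authors deposited raw read counts per gene, from 13537267 to 20569706 per library; 55230 of the 55471 gene IDs matched GENCODE M21 for symbols.

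Counts were fitted with edgeR 4.0.16 (R 4.3.3, limma 3.58.1) as 9 group means over all 26 libraries after filterByExpr (18412 genes) and TMM scaling, and tested with the quasi-likelihood test at a Benjamini-Hochberg adjusted p under 0.05. CPM use the TMM-scaled library sizes. Standard errors of log2 fold changes were taken as the size of the change over the square root of F. Differences between lines are interaction terms of this model. Tested on simulated data with 18412 genes, the fit called 98 of 100 genes changed by 2-fold. The changed genes were drawn from well-read genes only, and only in the alphaKO day 4 group. They were also far fewer than the genes called in the data, and the run was set to stop at a lower number recovered. The value therefore does not measure recovery for genes with few reads. No pair of replicates agreed within sampling noise (chi-square per gene 2.31 to 6.26). DESeq2 1.42.0, other filters, RLE scaling, only the groups compared, a replicate block and leaving out each library were the alternatives. Same-numbered alphaKO libraries deviated together with r of 0.0558 to 0.0912, against -0.0539 to -0.0148 for the other alphaKO pairings. Deviations were taken from each group's mean, so positive values for some pairings lower the others. The main fit did not treat the numbers as pairs.

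The members, gene lists and tests were chosen with earlier results of these data known. Named were the 15 largest called increases and decreases within alphaKO, the 8 largest differences per direction from each other line (5 CPM minimum), 5 steady genes, up to 6 called members per list and all Hox genes; a few genes these rules chose are not reported here. Motifs were searched in RefSeq windows (GRCm38.p6) of 250 bases before to 50 after each start.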

Additional observations from a re-analysis of the deposited data

Results flagged for a closer look

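The change from day 2 to day 4 differed between alphaKO cells and each other line by the interaction test of edgeR (adjusted p under 0.05): 2828 genes had a more positive and 2406 a more negative change than in WT cells, and 1493 and 1549 than in fullKO cells. Both contrasts share the alphaKO libraries.

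The genes named by rule are listed here for that difference, as the log2 change in alphaKO cells minus that in the other line. Against WT cells, the neurotensin receptor Ntsr1 differed by 5.74, Fgf15 by 5.51, Sst by 5.24, Nhlh2 by 4.98, the netrin receptor Dcc by 4.91, Aldh1a2 by 4.81, Miat by 4.62 and Tfap2b by 4.42. In the other direction, Stmn4 differed by -3.15, Mocos by -3.04, Tent5a by -2.55, Cemip by -2.42, desmin (Des) by -2.40, Vgf by -2.30, Gbp2b by -2.26 and Ppm1j by -2.24.

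Against fullKO cells, Neurog1 differed by 5.86, Nhlh2 by 5.61, Fgf15 by 4.55, the guidance receptor Robo3 by 4.40, Miat by 3.60, Dcc by 3.34, Tfap2b by 3.16 and Crabp1 by 3.15. The negative differences were those of Stmn4 (-2.99), the myosin-binding protein Mybpc3 (-2.41), Filip1 (-2.36), Ankrd1 (-2.34), Postn (-2.25), Adamts12 (-2.11), Ednrb (-2.08) and Sncg (-2.02). Ntsr1 and Sst had 1 and 0 reads in the alphaKO day 2 libraries, so their differences rest on few reads.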

How the results depend on the processing

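All 8 counts of genes past the threshold stayed within 1.5 times their value under every alternative run. Leaving out 1 library at a time, genes higher at day 4 in alphaKO cells numbered 5180 to 5231 (5535 with all libraries) and genes lower 4807 to 4894 (5179); the other alternatives gave 5271 to 5432 and 4972 to 5261. The differences from WT ranged over 2517 to 2735 more positive and 2143 to 2380 more negative genes, and those from fullKO over 1155 to 1502 and 1344 to 1546, without single libraries. The alternatives that kept all libraries of the groups compared, the block included, gave 2526 to 2893 and 2262 to 2978 against WT, and 1166 to 1657 and 1492 to 2063 against fullKO. Fitting only the groups compared turned the balance against WT (2578 more positive and 2978 more negative, against 2828 and 2406 in the full fit) and gave 1387 and 2063 against fullKO. With the replicate block the counts were 5432 higher, 5099 lower, 2737 and 2344 against WT, and 1442 and 1524 against fullKO cells. Each alphaKO day 4 library correlated best with the day 2 library of its own number, a hint from the data and not from the design. The other lines did not hold to this: same-numbered pairs gave -0.0607 to 0.049 in WT and -0.0311 to 0.0434 in fullKO cells. The highest WT value, 0.082, was that of a pair with unlike numbers. Under the replicate block Hoxd10, T and the difference of Sst from WT lost their calls (adjusted p = 0.0584, 0.0548 and 0.0504), as they did without a filter on low counts (0.0858, 0.0897 and 0.0701), and DESeq2 did not call Hoxd10 (0.0552). H19 passed under the block (0.0492) and without the filter (0.0146). With only the groups compared, Hoxb2, Hoxb6, Hoxb9, Ccne2, Cenpe and Nap1l4 passed as lower (adjusted p = 0.0495, 0.00454, 0.0203, 0.0433, 0.0158 and 0.0448), and Hoxa7 passed without the first day 4 library (0.0467). The median of retinoid metabolism and binding was 1.02 with the filter of 1 CPM. 1 gene of the G1 cyclins, kinases and inhibitors passed as lower under RLE scaling, DESeq2, that filter or only the groups compared, or without the second day 4 library.

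The log2 changes whose sign turned were all uncalled. Leaving out 1 library at a time, they ranged as follows: Hoxd13 -0.0646 to 0.328, Hoxa2 -0.0202 to 0.0139, Hoxa11 -0.533 to 0.554, Ankrd11 -0.0114 to 0.0361, Ccng1 -0.0718 to 0.0607, Peg10 -0.0164 to 0.0383, mt-Co1 -0.0441 to 0.0438, Tdgf1 -0.146 to 0.0171, Cyp26c1 -0.00258 to 0.0591, Zscan4d -0.0161 to 0.0775. The difference of Rarb from WT ranged over -0.104 to 0.0121 and that from fullKO over -0.0248 to 0.0355. Fitting only the groups compared turned Ankrd11 (-0.00428), Peg10 (-0.00455), Uba1 (-0.00731), mt-Co1 (-0.0153) and the difference of Rarb from fullKO (-0.0222), which was -0.0102 without a filter. For mt-Co1, RLE scaling gave -0.00633, DESeq2 -0.00635 and the stricter filter -0.00475. The cause was not tested. No scaling moved the median of all genes by over 0.1. Genes under about 1 CPM, such as Hoxd10, T and Rxrg, are limited by depth, and 1 line per genotype limits every comparison between lines.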

Other observations

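Several gene groups not described above are given here for alphaKO cells between day 2 and day 4. Of all genes tested, 30.1% were higher and 28.1% lower. The counts of apoptosis regulators and replication-independent histone variants lay near these shares and are no result about those groups. Glucose handling was lower: of 23 genes of glycolysis and glucose transport 14 were lower and 4 higher. The glucose transporters Slc2a3 and Slc2a1 had 371, 387 and 408 and 198, 167 and 180.1 CPM at day 4, against 1561, 1624 and 1662 and 699, 733 and 741 CPM at day 2 (-2.06 ± 0.047 and -1.996 ± 0.059), while the neuronal enolase Eno2 rose (1.54 ± 0.12). Of 20 genes of one-carbon metabolism and amino acid stress 13 were lower and 4 higher, among them asparagine synthetase Asns (-1.11 ± 0.044), the mitochondrial folate enzyme Mthfd2 (-1.05 ± 0.079) and the stress kinase homologue Trib3 (-1.497 ± 0.14). Respiratory chain genes gave 30 lower and 8 higher of 73 tested (5 higher without the second day 4 library), with a median of -0.10 and Uqcrb at -0.74 ± 0.058. In WT cells the counts were 21 and 15, and in fullKO cells 50 and 2.

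Of 21 genes of basement membrane and other collagens 14 were higher and 4 lower. Col4a6 and Col4a5, collagen IV chains of a shared locus, had 12.7, 13.3 and 10.9 and 70.8, 66.7 and 58.8 CPM at day 4, against 0.913, 0.754 and 1.24 and 8.44, 6.63 and 8.52 CPM at day 2, and Col11a1 rose by 2.45 ± 0.075. Col9a1, a cartilage collagen, had 2 reads at day 4, against 53 at day 2. Antigen presentation and lysosome genes gave 14 higher and 3 lower of 20: the lysosomal genes Lamp2, Ctsa and Cd63 rose (1.45 ± 0.061, 1.34 ± 0.061 and 1.04 ± 0.066), and the class I genes H2-K1 and H2-D1, which are close relatives and so uncertain, fell (-1.49 ± 0.075 and -1.04 ± 0.089). Among 17 apoptosis regulators 6 were higher and 3 lower, led by the survival gene Bcl2, with 28.9, 28.8 and 33.4 CPM at day 4, against 6.9, 5.77 and 5.66 CPM at day 2 (2.31 ± 0.12).

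Immediate-early and handling genes gave 10 lower and 5 higher of 20 in alphaKO cells, whereas WT cells gave 6 lower and 11 higher and fullKO cells 6 and 8; the change was more negative in alphaKO cells for 12 genes against WT and 8 against fullKO cells. Klf6 changed by -1.19 ± 0.054 and the heat shock gene Hspb1 by -1.29 ± 0.063 in alphaKO cells, while Mycn rose by 1.69 ± 0.062 and Fos by 1.15 ± 0.23. Among 11 replication-independent histone variants 4 were higher and 3 lower, with the macroH2A gene H2afy2 at 0.68 ± 0.06 and H2afx at -0.40 ± 0.052. Clustered histone genes (30 tested, 1 higher and 5 lower, or 2 lower without the first day 4 library) are multi-copy and mostly lack poly(A) tails, so their values are uncertain.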
